A study of Homo sapiens with 9 samples.

Results

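WT p53 HEK293T cells are a human embryonic kidney line that was infected with lentivirus carrying wild-type p53 and kept under 1.5 µg/mL puromycin. Their RNA was sequenced in 3 of the 9 libraries of the series, each from a separate biological replicate, and all 3 are described here without a comparison to the mutant lines. The other 6 libraries came from lines made the same way with G245S or R273H p53. Levels were taken from WT p53 replicates 1 and 2, and replicate 3, a much shallower library, served as a check. The labels name the line HEK 293, the cell type epithelial cell and the genotype wild-type p53 overexpression, while the culture notes name it HEK293T. HEK293T cells carry a viral large T antigen that binds p53, and the study describes them as insensitive to p53, which limits the line as a model of p53 function. From the same RNA sequencing, the study also reports lower p53 transcriptional activity in both mutant lines than in WT p53 cells. No library of cells without the transgene was analysed here.

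Embryonic kidney forms from progenitors that switch on regulators such as PAX2, SIX2 and SALL1, and the mature nephron later makes transporters and filtration proteins. Cultured lines usually keep some regulators and lose the genes of specialised function. Intermediate filament genes are often used to place a line, since vimentin marks mesenchymal cells, keratins mark epithelia and neurofilaments mark neurons. A level below is given in CPM, the counts of a gene per 1000000 counts of its library, and a gene is called detected where it reached 1 CPM in both replicates 1 and 2. To compare levels between genes, counts were also divided by the exon length of the canonical transcript and scaled to the same sum (TPM). CPM did not rise with length in these libraries, as given below, so TPM may place short genes too high.

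The libraries held 8934225, 7682974 and 1485863 counts in replicates 1, 2 and 3. A gene with 0 counts could still have a level of up to 3 counts, which is 0.336, 0.390 and 2.02 CPM in the same order, so replicate 3 could not resolve a gene near 1 CPM. Of 78986 genes in the table, 15460 were detected, and 48576 had no count in either replicate 1 or 2. Between replicates 1 and 2, the median gene of 1 to 3 CPM differed 1.29-fold, and the median gene of 30 to 100 CPM differed 1.08-fold. Against the mean of these replicates, replicate 3 differed 1.62-fold at 1 to 3 CPM and 1.17-fold at 30 to 100 CPM.

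VIM, PAX2 and NEFM, the 3 genes chosen to mark the line, were all detected, VIM at a high level and PAX2 at a level close to the limit. VIM encodes vimentin, the intermediate filament of mesenchymal cells (ENSG00000026025; GRCh38 chromosome 10, 17228241 to 17237593), and its level was 537, 589.9 and 555 CPM in replicates 1, 2 and 3, a mean of 564 ± 37.0 CPM (SD, n = 2). The replicates lay close together and replicate 3 fell between the other two. NEFM, the medium neurofilament subunit of neurons (ENSG00000104722; GRCh38 chromosome 8, 24913758 to 24919098), was at 122, 168 and 136 CPM, a mean of 145 ± 32.1 CPM (SD, n = 2). PAX2, a paired-box regulator of the early kidney (ENSG00000075891; GRCh38 chromosome 10, 100735396 to 100829944), was far lower, at 2.13, 3.51 and 3.37 CPM, a mean of 2.82 ± 0.981 CPM (SD, n = 2). Its values rested on 19, 27 and 5 counts, and the exact Poisson 95% intervals were 1.28 to 3.32 CPM in replicate 1 and 2.32 to 5.11 CPM in replicate 2, which overlap. Per length the order was the same, with VIM at 345 ± 30.1 TPM, NEFM at 58.5 ± 14.2 TPM and PAX2 at 0.889 ± 0.327 TPM (SD, n = 2), and the SDs of neighbours in this order did not meet. Intervals and floors of this kind cover counting error only. In RNA from a whole culture, fewer cells with a transcript and less of it per cell cannot be told apart, so a low level such as that of PAX2 may belong to all cells or to some.

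Protein-coding genes carried 93.1%, 92.5% and 90.7% of the counts in replicates 1, 2 and 3, a mean of 92.8 ± 0.480% (SD, n = 2). Detected protein-coding genes numbered 12549 of 20120, or 62.4%, and 4095 had no count in replicates 1 and 2. A large part of the counts came from few of them. The 122 protein-coding genes with a mean of at least 1000 CPM held 26.9%, 25.8% and 29.0% of all counts in replicates 1, 2 and 3. The 7230 genes between 10 and 100 CPM held 26.3%, 27.2% and 25%. A set of 603 genes in replicate 1, 655 in replicate 2 and 527 in replicate 3 sufficed to reach 50% of the counts.

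Long non-coding RNAs, transcripts that do not encode a protein, were numerous in the annotation and thin in the cells. They took 2.66%, 2.80% and 3.36% of the counts in replicates 1, 2 and 3, and 2021 of 35036 were detected, or 5.77%. The genes named here are autosomal, and X-linked long non-coding RNAs are not described here. The highest was ENSG00000264772 on chromosome 17, at 1018, 1022 and 898 CPM, whose span overlaps the coding gene EIF4A1 on the same strand. Reads of such overlapping genes cannot be assigned with certainty, so this level cannot be read as that of the non-coding RNA alone. MALAT1, an abundant nuclear RNA, had no coding gene over it on its strand and was at 454, 707 and 1168 CPM, higher in replicate 3 than in either of the others. SNHG29 and SNHG16, host genes of small nucleolar RNAs, were at 562, 482 and 593 CPM and at 453, 399.7 and 374 CPM.

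Processed pseudogenes, reverse-transcribed copies of mRNAs, took 2.19%, 2.11% and 2.84% of the counts. The authors shared reads that map to several places as fractions between them, and 89.1% of the 567 detected processed pseudogenes held a count more than 0.001 from a whole number in replicate 1 or 2, against 37.5% of the detected protein-coding genes. By counts the classes were closer. Genes with such a fraction held 95.9% of the processed pseudogene counts and 62.1% of the protein-coding counts of replicates 1 and 2. The highest were copies of ribosomal protein genes, such as RPS2P46 at 1221, 1211 and 1209 CPM and RPL13P12 at 948, 930.5 and 1382 CPM. The unprocessed pseudogenes were led by nuclear copies of mitochondrial genes on chromosome 1, with MTND1P23 at 837, 1076 and 1436 CPM and MTCO1P12 at 227, 387 and 372 CPM. All of these are uncertain, since reads shared with the parent gene cannot be told from their own. The levels of the parent genes carry the same doubt.

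Small RNA classes were close to the floor in a library made from mRNA. miRNA genes held 0.110%, 0.107% and 0.0908% of the counts, and 13 of 1879 were detected. The leading member, MIR1244-1, was listed at 542, 526 and 434 CPM, and its locus on chromosome 2 lies within PTMA on the same strand, the gene of the abundant nuclear protein prothymosin alpha, which was at 2596, 2867 and 3318 CPM. MIR1244-2, a near-identical copy with no coding gene on its strand, was at 175, 166 and 90.9 CPM. These are reads over the miRNA's locus, uncertain where copies share them, and not a measure of mature miRNA. Small nucleolar RNAs, which act in rRNA processing and modification, took 0.00958%, 0.0111% and 0.0331% of the counts. The highest of them, SNORD3A, was at 7.84, 8.07 and 45.8 CPM. RN7SL1, the RNA of the signal recognition particle, was at 24.3, 25.3 and 61.2 CPM, so that both were highest in replicate 3. Nuclear rRNA genes were listed at 0 in all 3 libraries, as were the 92 spike-in control entries.

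The most abundant genes belonged to the mitochondrial genome and to the cytosolic ribosome. Among the 20 highest by mean CPM, 12 encode ribosomal proteins and 6 lie on the mitochondrial chromosome. The remaining genes were RACK1, a scaffold protein of the small ribosomal subunit, at 3531, 3563 and 3508 CPM, and ACTG1, cytoplasmic gamma actin, at 3281, 3236 and 2428 CPM. MT-RNR2, the mitochondrial large ribosomal RNA, was highest of all, at 10503, 13867 and 16298 CPM, a mean of 12185 ± 2379 CPM (SD, n = 2). MT-CO3, a subunit of cytochrome c oxidase, followed at 7965, 9459.6 and 12925 CPM. RPS2 led the nuclear genes, at 5969.5, 5847 and 4827 CPM, with RPS14 at 5298, 4643 and 6838 CPM. Replicate 3 was the highest library for MT-RNR2, MT-CO3 and RPS14 and the lowest for RPS2 and ACTG1.

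**Figure D1:**
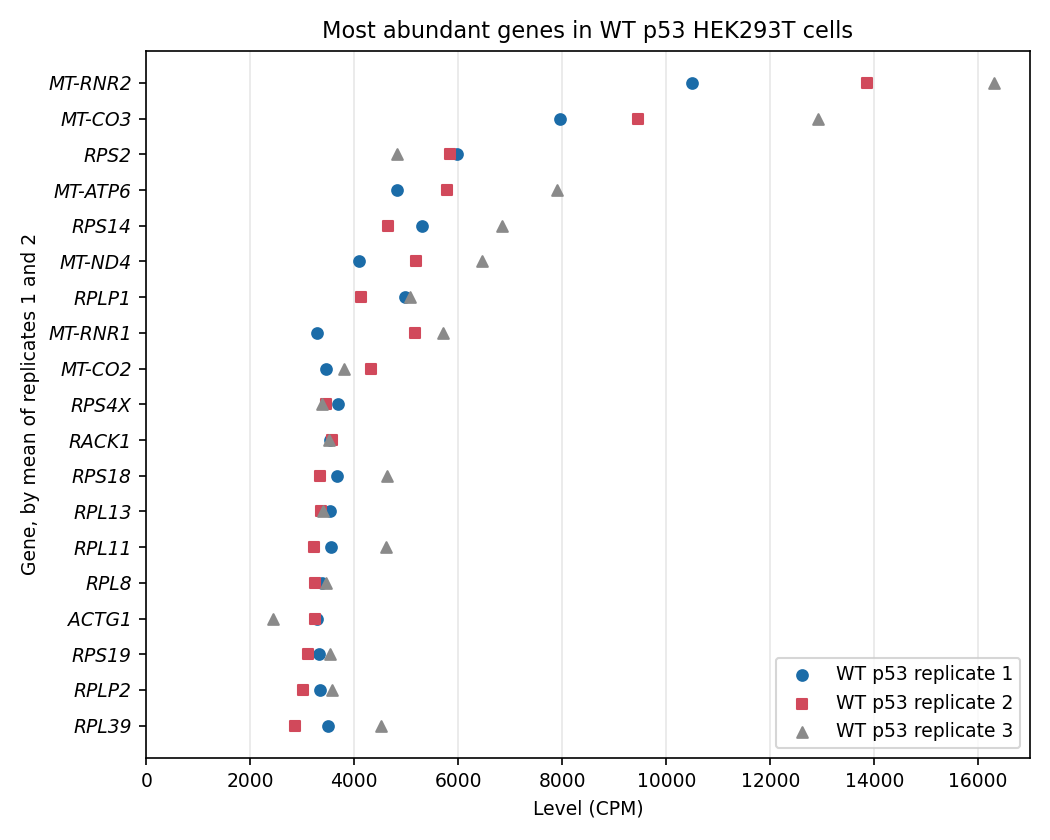
Levels in CPM (horizontal axis) of 19 of the 20 genes with the highest mean over WT p53 replicates 1 and 2, 1 gene per row, with a point for each of the 3 libraries. The mitochondrial genes MT-RNR2 and MT-CO3 reach 16298 and 12925 CPM in replicate 3, above the other libraries, while RACK1 has nearly the same level in all 3.

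The cytosolic ribosome took a large part of the RNA. Of 87 ribosomal protein genes, 84 were detected, and together they held 17.2%, 15.5% and 18.3% of the counts in replicates 1, 2 and 3. Where reads are shared with processed pseudogenes, the level and rank of a single ribosomal protein gene are uncertain. Their median level was 2575 TPM, from 4.99 to 10692 TPM among those detected. The highest per length was RPL39, a short protein of the large subunit, at 10692 ± 1285 TPM (SD, n = 2), with RPLP2, a stalk protein, at 9055 ± 445 TPM and RPS18 at 8399 ± 364 TPM. The ribosomal proteins of mitochondria were all detected, 76 of 76, with a median of 109.9 TPM. Proteasome subunits, which degrade tagged proteins, had a median of 129.6 TPM with 36 of 39 detected. By length, protein-coding genes of at least 10 CPM had a median of 69.9 CPM in the shortest 20% and 32.0 CPM in the longest 20% (Spearman's rho = -0.24 over 8996 genes, which are not independent replicates), so longer transcripts did not have higher CPM. Dividing by length may then place short genes such as RPL39 too high, and TPM orders between genes of unlike length are uncertain.

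The mitochondrial chromosome held 4.47%, 5.71% and 7.02% of the counts in replicates 1, 2 and 3. All 13 of its mRNAs were detected. Per length they spread widely, from MT-CO3 at 14644 ± 2092 TPM and MT-ATP6, a subunit of the ATP synthase, at 10272 ± 1535 TPM to MT-ND5 at 306 ± 51 TPM and MT-ND6 at 282 ± 101.2 TPM, both subunits of complex I (SD, n = 2). MT-ND6 is the mRNA made from the opposite strand, and its level was 85.1, 139 and 180.4 CPM. How fully the library captures MT-ND6 was not tested, so its last place need not reflect its level in the cells. MT-CO1, the catalytic subunit of cytochrome c oxidase, was at only 896 ± 312 TPM, below its partner subunit MT-CO2 at 7483 ± 1346 TPM. Nuclear copies of MT-CO1, MT-CO2, MT-CO3, MT-ND1, MT-ND2 and MT-ATP6 hold fractional counts on chromosome 1, so the order of these mRNAs is uncertain.

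Of the histone genes that cells use during DNA replication, 25 of 69 were detected, and 1 of them stood out. H4C3, a histone H4 gene, was at 2586, 2612 and 3973 CPM and, per length, at 8447 ± 243 TPM (SD, n = 2), the only gene among the 10 highest by TPM that was neither ribosomal nor mitochondrial. The median of the detected histone genes was 6.52 CPM. How fully the library captures histone transcripts was not tested, so few counts need not mean a low level in the cells. PTMA at 2731 ± 192 CPM, the chaperones HSP90AA1 at 2711 ± 367 CPM and HSP90AB1 at 2540.1 ± 161 CPM, and the elongation factor EEF1A1 at 3086 ± 97.5 CPM (SD, n = 2) were among the other abundant nuclear genes. All 14 genes of the housekeeping list were detected, from ACTB at 2587, 2636 and 1637 CPM to TBP, the TATA-binding protein, at 31.5, 30.1 and 17.5 CPM. ACTB and TBP were lower in replicate 3 than in replicates 1 and 2, while GAPDH, a glycolytic enzyme, was at 1908, 1972 and 1791 CPM.

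Other families were almost entirely below the limit. None of 401 olfactory receptor genes was detected, and 378 of them had no count in replicates 1 and 2. None of 94 keratin-associated protein genes, which build hair, and none of 42 beta-defensin genes, antimicrobial peptides of epithelia, was detected either. Of 38 interleukin genes, 2 passed, the higher being IL17D at 1.79, 3.25 and 2.69 CPM. ZNF zinc finger genes were the reverse case of many genes at low levels, with 402 of 510 detected at a median of 7.0 CPM. ZNF703, at 443, 468 and 355 CPM, was the highest of them.

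By chromosome, 1 held the most counts, 10.2%, 10.3% and 9.67% in replicates 1, 2 and 3, and 21 the fewest among the autosomes, 0.727%, 0.732% and 0.688%. The shares of detected protein-coding genes ran from 52.5% on X, 52.9% on 11 and 53.4% on 21 to 69.8% on 14. The low values on 11 and 21 went with families of which no member was detected. Chromosome 11 carries 172 olfactory receptor genes, and without them 60.8% of its protein-coding genes were detected. Chromosome 21 carries 49 keratin-associated protein genes, and without them the share was 68.6%. On X, leaving out the 32 MAGE genes, a family often active in germ cells and tumours, moved the share only to 53.1%.

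The level of the detected genes also differed by chromosome. Their median was highest on chromosome 22, at 34.9, 36.7 and 34.3 CPM in replicates 1, 2 and 3, and no other nuclear chromosome described here reached it in any library. It was lowest on chromosome 19, at a median of 16.6 CPM over the means of replicates 1 and 2, with 13 next at 17.7 CPM. Chromosome 19 carries 246 ZNF genes, of which 183 were detected at a median of 4.88 CPM, and the other detected genes of the chromosome had a median of 26.4 CPM. Relative to its share of protein-coding genes, chromosome 22 held 1.27 times its share of the counts, 17 held 1.20 times and chromosome 4 0.628 times. The highest gene was a ribosomal protein gene on most chromosomes. The exceptions among those described here were ACTB on 7, TPT1 on 13 at 1389.8 CPM, HSP90AA1 on 14, ACTG1 on 17, SNRPD1, a core splicing protein, on 18 at 548 CPM, PTMA on 2 and SOD1, superoxide dismutase, on 21 at 407 CPM, each the mean of replicates 1 and 2. The copy number of these chromosomes in the cells was not measured here.

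**Figure D2:**
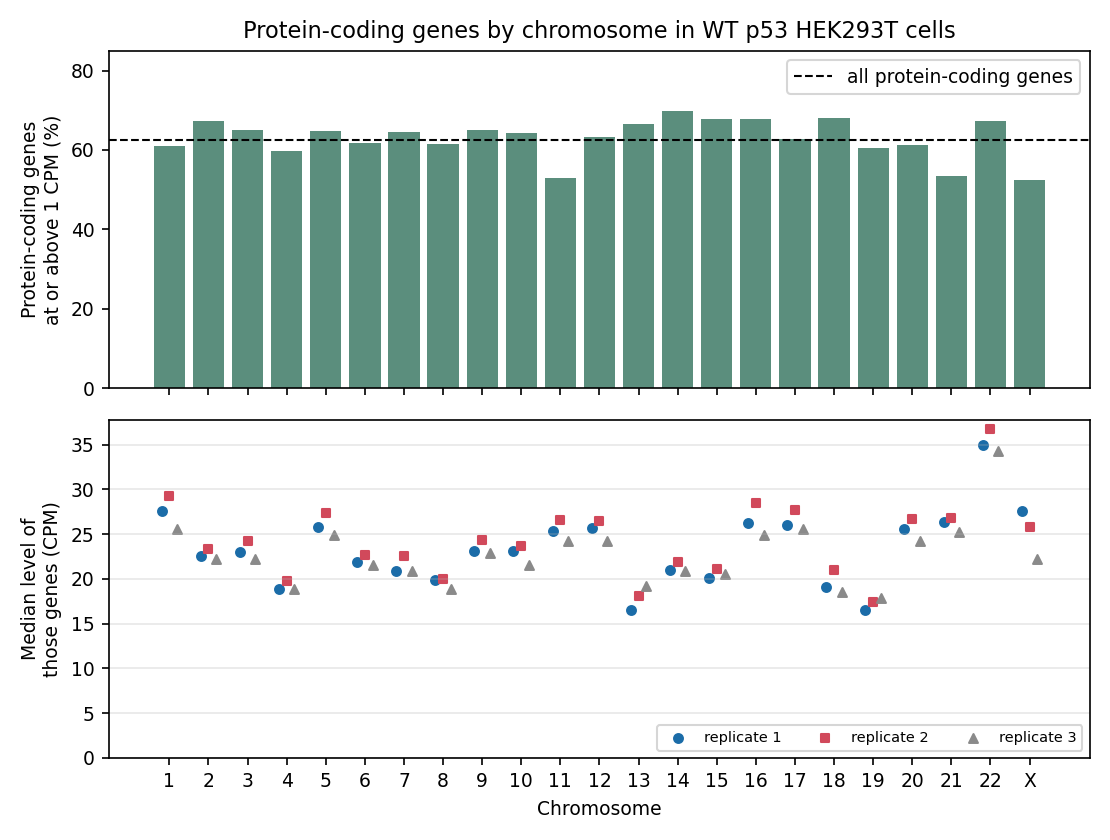
Upper panel, percentage of the protein-coding genes of each chromosome at or above 1 CPM in WT p53 replicates 1 and 2, with a dashed line at 62.4% for all protein-coding genes. Lower panel, median level in CPM of those detected genes in each library, highest on chromosome 22 and lowest on chromosome 19 in all 3.

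Kidney progenitor genes were detected about as often as protein-coding genes at large, and few genes of the mature nephron were detected. Of the 20 progenitor genes listed, 14 were detected, or 70%, beside 62.4% of all protein-coding genes. CITED1, a cofactor of the cap mesenchyme from which nephrons arise, was the highest at 165, 166 and 160.2 CPM, a mean of 166 ± 0.539 CPM (SD, n = 2), with little spread between libraries. SIX2, a homeobox regulator of the nephron progenitors, was at 34.9, 28.1 and 24.9 CPM. GATA3, a regulator of the nephric duct, was at 33.8, 34.4 and 38.4 CPM, and SALL1, a zinc finger regulator of the metanephric mesenchyme, at 19.5, 22.5 and 12.8 CPM. LHX1, EMX2 and WT1, which act in the early nephron, gonad and podocyte lineages, were lower, at 7.0 ± 2.62 CPM, 6.27 ± 0.157 CPM and 5.69 ± 0.50 CPM (SD, n = 2). The secreted factor WNT11 was at 3.56 ± 0.123 CPM. Not every regulator of the lineage was present. PAX8, the partner of PAX2, had 2, 0 and 0 counts in replicates 1, 2 and 3, and WNT9B, an inducer made by the duct, had 0, 1 and 0 counts.

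Of the 25 genes of the mature nephron, 2 were detected, or 8%, and 14 had 0 counts in all 3 libraries. The detected genes were PODXL, a sialomucin of podocytes, at 16.9, 14.1 and 12.8 CPM, and LRP2, the endocytic receptor megalin, at 6.60, 5.73 and 5.38 CPM. Those with 0 counts included SLC34A1, SLC22A6 and SLC22A8 of the proximal tubule, UMOD, SLC12A1 and KCNJ1 of the thick ascending limb, SLC12A3 of the distal tubule, AQP2, AVPR2, SCNN1B and SCNN1G of the collecting duct, NPHS1 of the podocyte, and the kidney cadherin CDH16. AQP1, the water channel of the proximal tubule, had 2, 0 and 1 counts. Summed over the list, the level was 27.2, 23.2 and 28.9 CPM, against 365, 382 and 360.1 CPM for the progenitor list. The progenitor sum rests on few genes, among them CITED1 at a mean of 166 CPM. The median of the progenitor list was 2.53 CPM, below the 6.26 CPM over all protein-coding genes.

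Among the PAX genes as a family, paired-box regulators of several organs, PAX2 was not the highest. PAX6, a regulator of eye and brain, was at 26.9, 26.6 and 26.2 CPM, a mean of 12.8 ± 0.173 TPM against 0.889 ± 0.327 TPM for PAX2 (SD, n = 2). PAX3, of neural crest and muscle, was at 7.13 ± 0.589 CPM, PAX9 at 4.27 ± 0.142 CPM and PAX5, of B cells, at 1.45 ± 0.155 CPM. PAX4 had 0 counts in all 3 libraries. Of the 9 PAX genes, 5 were detected.

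**Figure D3:**
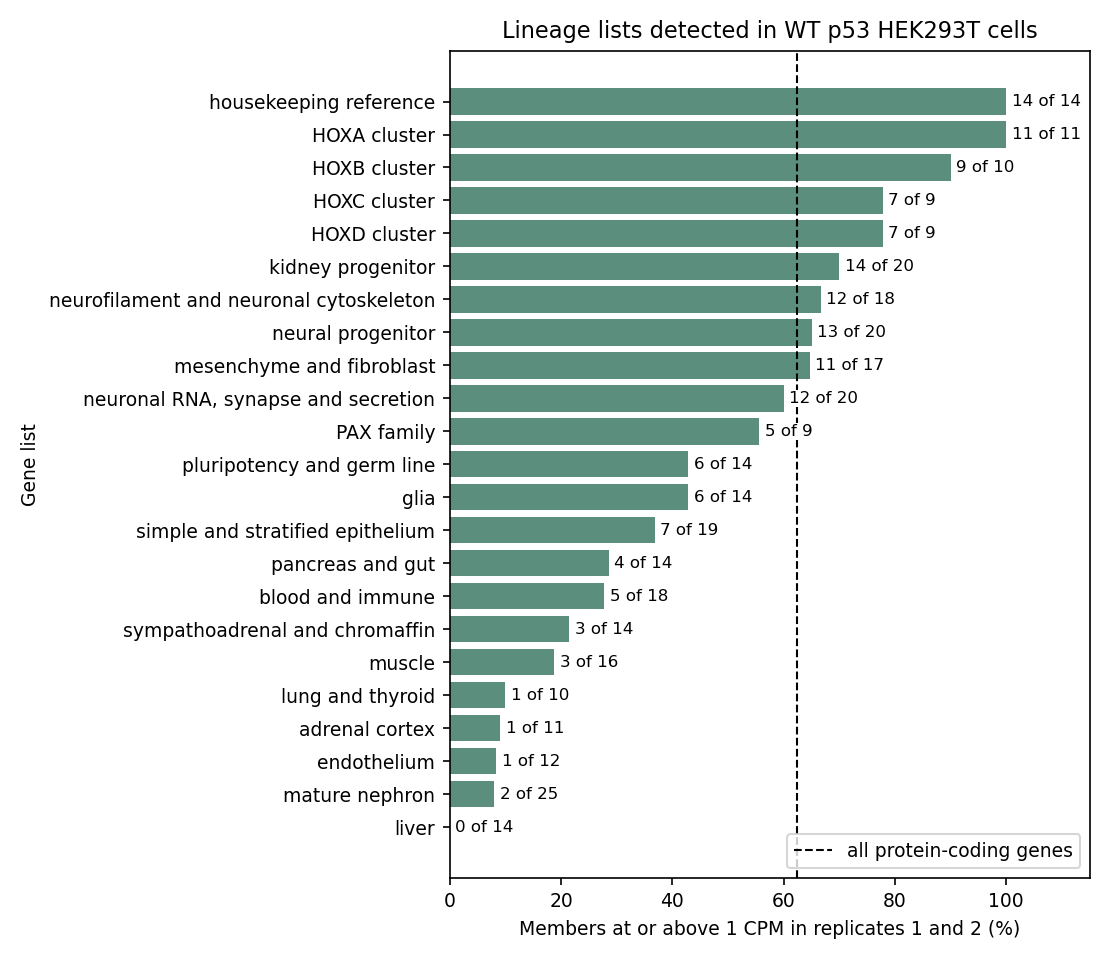
Percentage of the members of each gene list that reached 1 CPM in both WT p53 replicates 1 and 2 (bars, with the number detected of the number found in the table), and the same over all protein-coding genes (dashed line, 62.4%). The kidney progenitor list lies at 70% and the mature nephron list at 8%, with liver at 0% and the HOXA cluster at 100%.

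Genes named for neurons and their progenitors were detected about as often as protein-coding genes at large, 62.4%. Of 18 genes of the neuronal cytoskeleton, 12 were detected, or 66.7%. The 3 neurofilament subunits were unequal, with NEFM at 58.5 ± 14.2 TPM and NEFL, the light subunit, at 18.9 ± 1.39 TPM (SD, n = 2), while NEFH, the heavy subunit, had 2, 0 and 1 counts. NEFM varied more than NEFL, with replicate 2 the highest library. INA, alpha-internexin, was at 11, 11.8 and 8.75 CPM and PRPH, peripherin, had 8, 10 and 1 counts. MAP1B, a microtubule protein of growing axons, was at 56.2, 80.6 and 91.5 CPM, DPYSL3 at 27.6, 36.6 and 25.6 CPM, STMN3 at 31.6, 27.9 and 24.2 CPM and TUBB3, neuronal beta tubulin, at 14.9, 16 and 15.5 CPM. GAP43, a growth cone protein, was at 4.81, 7.42 and 6.73 CPM, while DCX, doublecortin of young neurons, had 0 counts in all 3 libraries and STMN2 had 0, 1 and 0 counts.

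Of 20 genes for neuronal RNA binding, synapses and secretion, 12 were detected, or 60%. UCHL1, a ubiquitin hydrolase abundant in neurons, was the highest of the list at 282, 259.5 and 215 CPM, or 323 ± 11.9 TPM (SD, n = 2). VIM was at 345 ± 30.1 TPM, which overlaps it within the SDs. In CPM the 2 genes were apart, with UCHL1 at 271 ± 15.8 CPM and VIM at 564 ± 37.0 CPM (SD, n = 2). VAMP2, a vesicle fusion protein, was at 45.9, 52.2 and 45.1 CPM. The splicing and RNA stability factors NOVA1 and ELAVL2 were at 18.8, 23 and 19.5 CPM and at 20.4, 21.5 and 21.5 CPM, whereas the related ELAVL3 and ELAVL4 had 2, 2 and 0 counts and 1, 1 and 1 counts. NCAM1, a neural adhesion molecule, was at 17.7, 22.4 and 28.9 CPM, and SYP, synaptophysin, at 8.84, 6.38 and 10.8 CPM. SNAP25, a membrane partner of VAMP2, had 3, 4 and 2 counts. Of the granins, proteins of secretory granules, SCG3 was detected at 1.23, 1.17 and 1.35 CPM, SCG2 lay at the limit with 8, 9 and 3 counts, and CHGA and CHGB had 8, 6 and 2 counts and 2, 1 and 0 counts.

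Of 20 neural progenitor genes, 13 were detected, or 65%. SOX4 led at 279, 306 and 346 CPM, followed by ZIC2, a zinc finger regulator of the forebrain and neural crest, at 117, 124 and 84.1 CPM. MSI1, an RNA-binding protein of neural stem cells, was at 48.8, 45.0 and 33.7 CPM, POU3F2 at 25.1, 30.8 and 31.6 CPM and SOX2 at 23.7, 28.6 and 23.6 CPM. NES, the filament of neural stem cells, was at 9.63, 16.9 and 28.9 CPM, lowest in replicate 1 and highest in replicate 3. The proneural genes NEUROG1 and NEUROD1, which start neuronal differentiation, had 0 counts in all 3 libraries, and NEUROG2 had 6, 8 and 0 counts.

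The adrenal gland lies beside the kidney, and its genes were largely missing. Of 14 sympathoadrenal genes, 3 were detected, all regulators, namely GATA2 at 26.2, 26.8 and 21.5 CPM, ISL1 at 18.5, 23.8 and 16.8 CPM and HAND2 at 1.90, 1.82 and 1.35 CPM. TH and DBH, the enzymes of catecholamine synthesis, the regulator PHOX2A and the transporter SLC6A2 had 0 counts in all 3 libraries. Of 11 genes of the adrenal cortex, only the nuclear receptor NR0B1 passed, at 1.90, 1.30 and 2.02 CPM. NR5A1, the master regulator of steroid-producing cells, had 1, 0 and 0 counts, and the steroid enzymes CYP17A1, CYP11B1 and HSD3B2 had 0.

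The labelled cell type is epithelial, and the epithelial genes were uneven. KRT18 and KRT8, the keratin pair of simple epithelia, were at 59.7, 65.6 and 154 CPM and at 9.40, 12.1 and 52.5 CPM, and KRT10 and KRT14, of stratified epithelium, had means of 117 ± 7.79 CPM and 13.8 ± 6.32 CPM (SD, n = 2). EPCAM, an adhesion molecule of simple epithelia, was near the limit in replicates 1 and 2, at 0.784 and 1.56 CPM (7 and 12 counts). It was well above it in replicate 3, at 13.5 CPM (20 counts). CDH1, E-cadherin, was at 1.23, 1.43 and 3.37 CPM, while CDH2, N-cadherin, was at 75, 85.1 and 67.3 CPM. Of 19 epithelial genes, 7 were detected, or 36.8%, and GRHL2 and ESRP1, which maintain the epithelial state, had 1, 0 and 1 counts and 1, 2 and 2 counts. OCLN, a tight junction protein, was at 8.06, 6.77 and 5.38 CPM, whereas the claudins CLDN3, CLDN4 and CLDN7 each had at most 5 counts in replicates 1 and 2. Of 17 mesenchymal genes, 11 were detected, or 64.7%, near the 62.4% of all protein-coding genes. After VIM the list was led by CDH2 and by SPARC, a matrix protein, at 59.7, 84.3 and 122 CPM. The collagens COL1A1, COL1A2 and COL3A1 were at 17.8, 23.4 and 29.6 CPM, 15.2, 28.4 and 52.5 CPM and 6.16, 15.7 and 16.8 CPM, in every case lowest in replicate 1. DCN, decorin of fibroblasts, had 0, 1 and 1 counts, and TCF21, a fibroblast and podocyte regulator, had 0 in all 3.

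Vimentin led the intermediate filament genes. Of 55 keratin genes, 10 were detected and 32 had no count in replicates 1 and 2. Per length, VIM at 345 ± 30.1 TPM exceeded KRT10 at 71.8 ± 3.22 TPM, NEFM at 58.5 ± 14.2 TPM and KRT18 at 58.4 ± 5.18 TPM (SD, n = 2), and the last 2 of these did not differ beyond their SD. KRT8 and KRT18, which pair in simple epithelia, were unequal, with KRT8 at 7.95 ± 1.58 TPM. Some keratins of stratified epithelium were lowest in replicate 1. KRT5 was at 3.36, 12.6 and 10.1 CPM, KRT14 at 9.29, 18.2 and 23.6 CPM and KRT17 at 5.15, 16.9 and 13.5 CPM. KRT10, at 123, 112 and 119.8 CPM, was highest in replicate 1 and KRT6B, at 0.895, 2.86 and 0.673 CPM, lowest in replicate 3, so the order was not shared by all keratins. KRT6A was at 2.24, 6.38 and 4.71 CPM and KRT16 at 1.12, 3.64 and 2.02 CPM, and KRT17, KRT6A, KRT6B and KRT16, which are in no list, were picked after their values were seen. These keratins have close copies with which they may share reads. The part of other cells or RNA in this difference between replicates was not tested.

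Some regulators of distant organs were detected and others were not. Detected genes numbered 3 of 16 in the muscle and heart list, 4 of 14 in the pancreas and gut list and 1 of 10 in the lung and thyroid list. NKX2-5, a homeobox regulator of the heart, was at 63.0, 64.6 and 45.1 CPM, a mean of 63.8 ± 1.09 CPM (SD, n = 2), while the heart genes TNNT2 and MYH7 had 1, 3 and 1 counts and 0, 1 and 0 counts, and NPPA had 0 in all 3 libraries. TNNI3, cardiac troponin I, was at 6.94, 6.25 and 6.73 CPM, and the remaining gene detected was ACTA1, skeletal actin, at 1.12, 2.08 and 2.69 CPM. CDX2, the homeobox regulator of the intestine, was at 40.7, 35.7 and 25.6 CPM, while MUC2, the intestinal mucin, had 0 and VIL1, villin of the brush border, had 0, 2 and 1 counts. NKX6-1 and PDX1, regulators of the pancreas, were at 6.27, 6.25 and 2.69 CPM and at 1.34, 1.30 and 0 CPM, with INS, GCG and CPA1 at 0 in all 3, and LGR5, a stem cell receptor, was at 4.14, 2.21 and 4.71 CPM. NKX2-1, of lung and thyroid, was at 2.01, 2.08 and 2.02 CPM, and the surfactant genes SFTPA1, SFTPB and SFTPC had 0. TWIST1, a mesodermal regulator, was at 15.9, 16 and 19.5 CPM. The muscle regulators MYOG and MYF5 and the endodermal and endothelial regulator SOX17 had 0 counts in all 3 libraries, and MYOD1 had 1, 1 and 0 counts.

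When every list gene was sorted by function after its values had been seen, and the HOX and housekeeping genes were left out, 37 of 75 transcriptional regulators were detected, or 49.3%, and 66 of 205 other genes, or 32.2%. Both shares lie below the 62.4% of all protein-coding genes. The median level was 1.19 CPM for the regulators and 0.307 CPM for the others, beside 6.26 CPM over all protein-coding genes. Over all lists, 151 of 333 genes were detected, or 45.3%. These counts describe lists written with earlier results of these data known and were given no test.

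HOX genes, which pattern the body axis, were detected across all 4 clusters, 34 of 39, or 87.2%. All 11 HOXA genes were detected, along with 9 of 10 HOXB genes and 7 of 9 in each of the HOXC and HOXD clusters. HOXB1, a hindbrain gene, had 0 counts in all 3 libraries, and HOXC12 and HOXD12 had 2, 2 and 1 counts and 3, 0 and 0 counts. Per length HOXA5 was the highest at 95.8 ± 5.11 TPM, followed by HOXA9 at 59.5 ± 2.30 TPM, HOXA10 at 51.7 ± 5.04 TPM and HOXD13 at 41.2 ± 0.183 TPM (SD, n = 2). HOXA9 and HOXA10 differed by slightly more than their SDs. In the HOXD cluster the level was higher toward the posterior end, from HOXD3 at 1.37 ± 0.235 TPM and HOXD9 at 8.45 ± 2.52 TPM through HOXD10 at 24.7 ± 1.29 TPM and HOXD11 at 31.8 ± 1.05 TPM to HOXD13, with HOXD12 between the last 2 near 0. By paralog number, the median was 6.20 CPM for genes 1 to 4, 19.6 CPM for genes 5 to 8 and 29.7 CPM for genes 9 to 13. HOXA5 was at 119, 124 and 114 CPM and HOXD13 at 77.1, 74.3 and 45.1 CPM, the latter lowest in replicate 3.

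**Figure D4:**
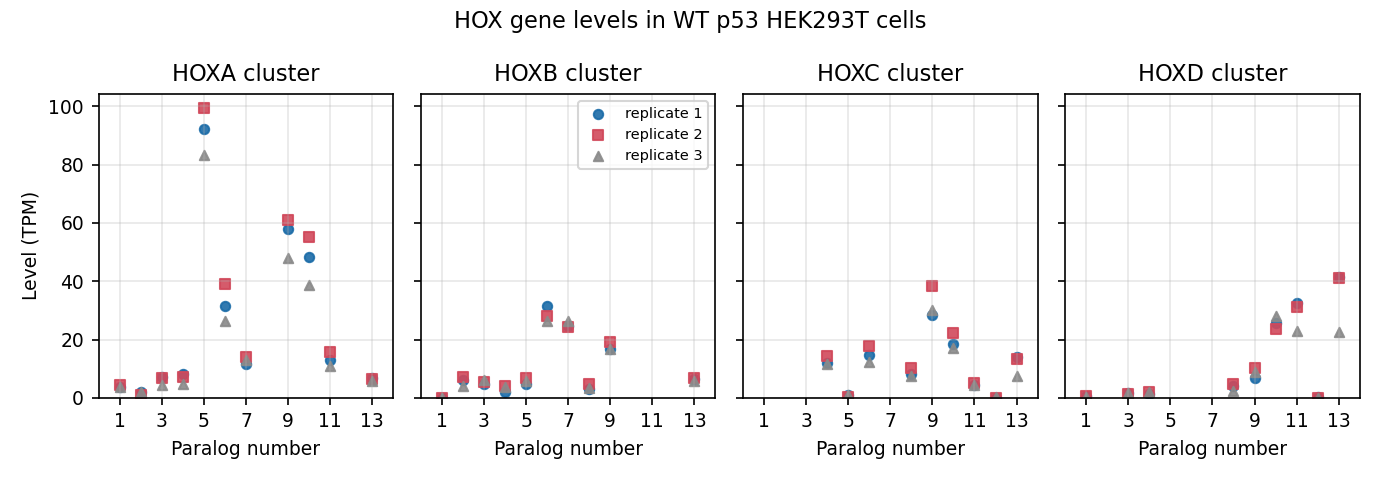
Level in TPM (vertical axis) of each HOX gene by its paralog number (horizontal axis), 1 panel per cluster, with a point for each of the 3 WT p53 libraries. HOXA5 is the highest gene in every library, HOXC9 leads its cluster in every library, and HOXD13 leads its cluster in replicates 1 and 2 but not in replicate 3.

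Genes of blood, vessels and liver were mostly not detected. Of 14 liver genes none was detected, and the summed level of the list was 0.672 and 1.17 CPM in replicates 1 and 2. Of 12 endothelial genes, EGFL7, a secreted vessel factor, was alone in passing, at 28.2, 28.9 and 38.4 CPM, while VWF and CLDN5 had 0 in all 3. Of 18 blood and immune genes, 5 passed. Of those, 4 were globin genes with near-identical copies, whose counts are uncertain. The T cell gene CD3E and the myeloid integrin ITGAM had 0, and PTPRC, the common leukocyte antigen, had 3, 4 and 1 counts. Of 14 glial genes, 6 passed, led by SLC1A3, a glutamate transporter, at 33.5, 40.1 and 39 CPM. SOX10, of the Schwann cell lineage, had 1, 0 and 0 counts.

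Of 14 pluripotency and germ line genes, 6 were detected. LIN28B, which blocks let-7 maturation, was at 36.9, 38.3 and 25.6 CPM, and the tumour antigens PRAME and MAGEA3, normally of the germ line, were at 38.5, 42.3 and 38.4 CPM and 32.1, 29.9 and 22.2 CPM, the last uncertain since it has a near-identical copy. POU5F1, the pluripotency regulator, was at 1.46, 1.30 and 5.38 CPM, uncertain since it has processed copies elsewhere, while NANOG, ZFP42 and the germ cell genes DAZL and DDX4 had 0 counts in all 3 libraries. Among all 33 MAGE genes, 13 were detected, the highest being MAGED1, a broadly active member, at 276, 267 and 212 CPM.

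Present and absent genes differed in the sequence before their start. Promoters rich in CG dinucleotides are typical of broadly active genes. RefSeq promoters of GRCh38.p14 were matched by symbol, chromosome and strand to 15406 of the protein-coding genes, taking the start nearest to the gene's 5′ end, and CG was counted in the 250 bases before it. The median was 3 CG in the 2944 genes without a count in replicates 1 and 2, 9 in those with counts but not detected, 20 in detected genes under 10 CPM and 22 in the 1466 genes of at least 100 CPM. Genes with 5 or fewer CG made up 65.6% of the first class and 2.73% of the last. The motif TATAAA, searched on both strands of the same 250 bases, was in 21.8% of the genes without a count, 4.39% of those from 10 to 100 CPM, 5.59% of those above and 9.33% of all. A match is a description and no evidence of a site in use.

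The stretches below show a gene of each kind, chosen after the values were seen except for the markers VIM and PAX2, with every CG in capitals. RPS14, the highest nuclear gene with an entry, has 23 CG and UMOD and ITGAM, both with 0 counts in all 3 libraries, have 2 each. VIM at chr10:17227991-17228240 (plus strand) has 8 and PAX2 at chr10:100735146-100735395 (plus strand) has 10, so VIM, the higher of the pair in every library, has fewer CG than PAX2. RPS14 lies at chr5:150449740-150449989, UMOD at chr16:20352716-20352965 (both minus strand) and ITGAM at chr16:31259725-31259974 (plus strand). None of the 5 holds TATAAA.
VIM: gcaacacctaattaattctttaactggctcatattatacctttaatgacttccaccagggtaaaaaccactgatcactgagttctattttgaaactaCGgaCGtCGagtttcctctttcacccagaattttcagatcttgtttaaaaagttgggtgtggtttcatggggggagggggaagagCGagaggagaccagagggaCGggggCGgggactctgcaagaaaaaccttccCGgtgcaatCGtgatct
PAX2: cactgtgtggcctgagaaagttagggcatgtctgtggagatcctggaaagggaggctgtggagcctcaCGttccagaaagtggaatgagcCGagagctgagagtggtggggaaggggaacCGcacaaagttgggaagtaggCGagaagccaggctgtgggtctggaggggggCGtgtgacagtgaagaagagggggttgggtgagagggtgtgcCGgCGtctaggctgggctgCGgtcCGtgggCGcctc
RPS14: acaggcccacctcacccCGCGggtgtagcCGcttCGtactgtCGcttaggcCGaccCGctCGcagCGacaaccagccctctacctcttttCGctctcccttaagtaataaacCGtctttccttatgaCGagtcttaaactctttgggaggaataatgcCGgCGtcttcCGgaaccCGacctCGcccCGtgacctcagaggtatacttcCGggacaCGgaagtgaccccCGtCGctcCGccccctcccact
UMOD: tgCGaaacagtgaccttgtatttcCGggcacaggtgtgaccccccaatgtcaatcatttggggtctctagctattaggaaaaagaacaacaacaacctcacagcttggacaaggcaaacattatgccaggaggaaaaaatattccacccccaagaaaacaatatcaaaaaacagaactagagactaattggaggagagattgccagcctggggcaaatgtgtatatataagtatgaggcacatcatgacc
ITGAM: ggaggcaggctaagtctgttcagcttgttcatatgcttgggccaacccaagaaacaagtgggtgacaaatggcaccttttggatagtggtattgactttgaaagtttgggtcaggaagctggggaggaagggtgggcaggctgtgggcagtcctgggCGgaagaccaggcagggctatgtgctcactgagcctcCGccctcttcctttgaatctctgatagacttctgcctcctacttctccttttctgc

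Replicate 3 was close to the other libraries for the marker genes and departed from them for other genes, coding and non-coding. A gene was counted as departing where the exact Poisson 95% interval of its replicate 3 level lay over 2 times outside the range of replicates 1 and 2, with that range taken as no lower than the floor. By this rule 247 genes were higher in replicate 3 and 4 lower, 175 and 1 of them protein-coding. Of the list genes, KRT19, a keratin of simple epithelia, had 4, 5 and 48 counts, or 0.448, 0.651 and 32.3 CPM. FN1, fibronectin, was at 11.5, 13.8 and 107 CPM, KRT8 at 9.40, 12.1 and 52.5 CPM, KRT18 at 59.7, 65.6 and 154 CPM and EPCAM at 0.784, 1.56 and 13.5 CPM. The summed level of the epithelial list was 217, 233 and 433 CPM, and 15 of its 19 genes reached 1 CPM in replicate 3. In that library 1 CPM is 1.49 counts, so the 15 are not comparable to the 7 detected in replicates 1 and 2. Over all lists, 200 genes reached 1 CPM in replicate 3, beside the 151 detected in replicates 1 and 2. LYZ, lysozyme, had 2, 0 and 10 counts, and the other list genes past the rule, KRT7, ERG, CLDN4, L1CAM and FGB, had between 7 and 8 counts in replicate 3.

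In 50 genes, 46 of them protein-coding, replicates 1 and 2 both had 0 counts and replicate 3, with under 1 in 5 of their depth, had more than 3. The names that follow were picked after their values were seen. SERPIND1, a liver clotting inhibitor, had 50 counts in replicate 3, PRSS2, a pancreatic trypsinogen, 27, CTSG, a neutrophil protease, 26, and KLK3, a prostate protease, 25. KLK2, its neighbour in the kallikrein family, had 3, 0 and 64 counts, TFF1, a gastric trefoil factor, 0, 1 and 39 counts, and CLCA1, of intestinal goblet cells, 0, 0 and 23 counts. APOE, a lipid carrier made by liver and macrophages, had 34, 40 and 126 counts. In the liver list, ALB had 0, 0 and 4 counts, FGA 0, 0 and 4 counts and FGB 0, 0 and 8 counts, and the list summed to 19.5 CPM in replicate 3. The source of these reads was not tested. Against the mean of replicates 1 and 2, the replicate 3 level was 0.985 times for VIM, 0.938 times for NEFM and 0.964 times for the sum of the kidney progenitor list, while it was 21.2 times for the sum of the liver list.

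**Figure D5:**
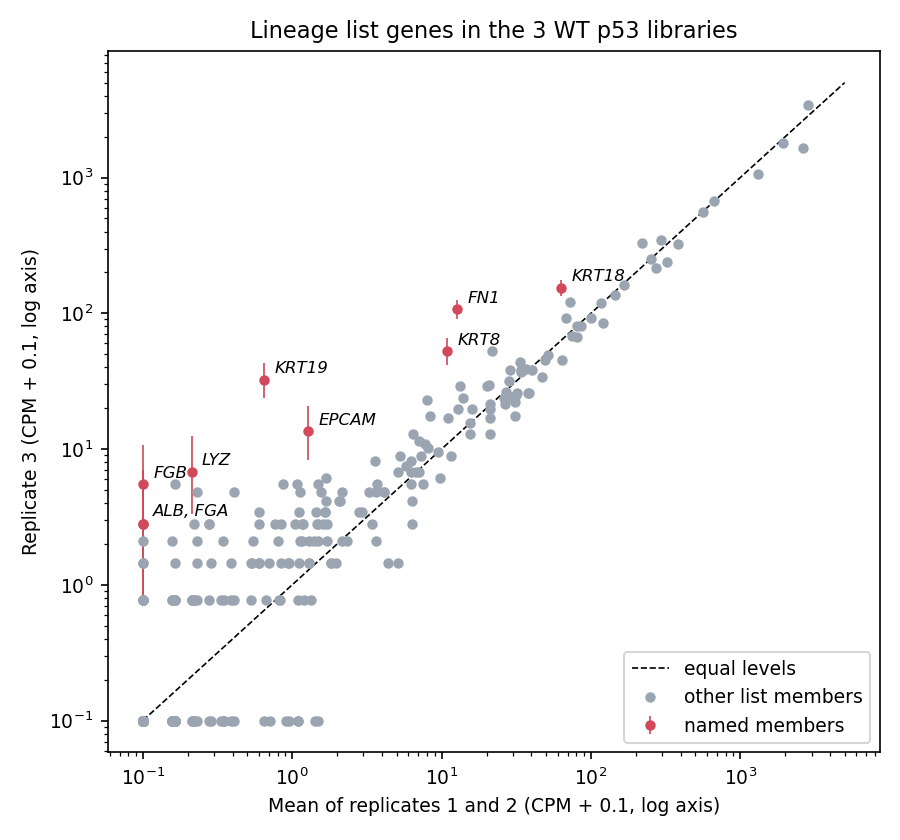
Level of each list gene outside the HOX clusters in replicate 3 (vertical axis) against its mean in replicates 1 and 2 (horizontal axis), both as CPM + 0.1 on log axes, with a dashed line at equal levels. Named genes carry the exact Poisson 95% interval of replicate 3, and KRT19, FN1, KRT8, KRT18 and EPCAM lie above the line while most genes over 10 CPM follow it.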

How the data were processed

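RNA of the WT p53 lines was submitted for mRNA sequencing as 3 replicates, and the levels here came from replicates 1 and 2, with replicate 3 as a check. The study's methods left 1 WT replicate out of its own comparison, for the quality of the sample as well as its low reads. The deposited gene table holds expected counts for each library, which the authors made from reads aligned to GRCh38, with duplicates collapsed by unique molecular identifier and reads counted by strand over exons and 3′ UTRs, those with several places shared as fractions. The submitters' processing notes name FastQC 0.12.1, fastp 0.24.0, STAR 2.7.11, SAMtools 1.22.1, Subread 2.1.1 and MultiQC 1.32. The deposited length column, in bases per gene, set no level, and the 15 other columns of per-sample values were not used.

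Counts were rounded to whole numbers and divided by the library total to give CPM. TPM used the exon length of the GENCODE v44 canonical transcript, which 61463 genes had, covering 99.4% of the counts in each of replicates 1 and 2. A gene was called detected at 1 CPM in both. No comparison between groups and no significance test was made. Values are the mean ± SD over 2 replicates, or counts with exact Poisson 95% intervals, and 3 counts set the limit for a gene at 0. The scripts were tested on simulated data. Named genes were the 3 markers, the 20 highest by CPM and the 10 highest by TPM, the highest of each biotype and chromosome, up to 8 of the highest detected members of each list with first-written members at 3 counts or fewer, and list genes that replicate 3 set over 2 times apart. Other named genes, the gene families, the split into regulators and other genes, and the promoters of RPS14, UMOD and ITGAM were chosen after values were seen, and the lists and markers were written with earlier results of these data known. The p53 gene itself and some other genes are not reported here. Alternatives were other library scalings (edgeR 4.0.16 TMM and DESeq2 1.42.0 size factors), other limits, TPM, and replicates left out. Python 3.11.15, numpy 2.4.6, pandas 2.3.3, scipy 1.17.1, matplotlib 3.10.9 and R 4.3.3 were used.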

Additional observations from a re-analysis of the deposited data

Results flagged for a closer look

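Replicate 3, the library that set no level, held reads of 3 liver genes that had 0 counts in replicates 1 and 2. ALB, serum albumin, had 4 counts in replicate 3, FGA, a fibrinogen chain, had 4, and FGB, another fibrinogen chain, had 8, above the limit of 3 counts that a count of 0 allows. By the interval rule for departing genes given above, FGB passed, while ALB and FGA did not. In the whole table, 50 genes had 0 counts in replicates 1 and 2 and more than 3 in replicate 3. The same count in the other direction was 64 genes with over 3 counts in replicate 2 alone and 63 in replicate 1 alone, in libraries at least 5 times as deep. These are not like for like, since 3 counts are 0.336, 0.390 and 2.02 CPM in replicates 1, 2 and 3. Between replicates 1 and 2, 3 genes had 0 counts in replicate 1 and over 9 in replicate 2, and 1 gene the reverse. Whether these reads came from the cells was not tested.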

How the results depend on the processing

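No paired analysis was possible because the results come from no test. The count of detected genes and the counts of list members stayed the same under TMM, DESeq2 and a total without mitochondrial genes, since the limit stayed at the same whole counts. Among the alternative values, 66 stayed within 1 SD or 1.5 times of the reported value and 14 moved. Part of the 66 was fixed in advance and is no evidence of stability. With 1 of replicates 1 and 2 left out, a share or a gene level always falls within their SD. TMM and DESeq2 scaling cannot change a share of counts. With any count in both replicates as the limit, 23699 genes were present in place of 15460. The protein-coding share of 92.8% became 92.1% over all 3 libraries, 90.7% in replicate 3 alone, 94.1% without mitochondrial genes in the total and 85.4% on the TPM scale. The mitochondrial share of 5.09% became 7.02% in replicate 3 alone and 7.73% in TPM. The share of the 10 highest genes, 5.95%, became 6.48% over all 3 libraries, 7.53% in replicate 3 alone, 4.33% without mitochondrial genes and 9.87% in TPM. With 1 of replicates 1 and 2 left out, the count of detected genes ran from 15866 to 16452, of list members from 159 to 167, and the shares from 92.5% to 93.1%, 4.47% to 5.71% and 5.6% to 6.30% in the order above. Depth sets the limit for low genes, since 1 CPM is 8.93 counts in replicate 1, 7.68 in replicate 2 and 1.49 in replicate 3.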
